A study of Mus musculus with 8 samples.

Results

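Soy isoflavones, their sugar conjugates and the products that gut bacteria make from them were followed in mouse faeces before and after an antibiotic. They were found by mass alone: an entry of the deposited table belonged to the set where its neutral mass lay within 3 ppm of 1 of 17 formulas, which covered aglycones, glucosides, acetyl and malonyl glucosides, and reduced products. This rule took in 22 of the 2429 entries in the table, and they covered 15 of the 17 formulas. The samples were 4 faecal samples labelled untreated and 4 labelled as treated with 20 mg streptomycin by gavage and taken 24 h later, all from female C57BL/6 mice of matched but unstated age. Faeces were frozen and extracted with acetonitrile, and each extract was sprayed without chromatography into an ion cyclotron resonance (FT-ICR) mass spectrometer, which tells formulas apart but not isomers. A sample's value was the mean relative intensity of its 2 acquisitions.

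Isoflavones are phenolic plant compounds that reach laboratory mice mainly through soy in the chow. In the bean they occur mostly as glucosides, many of them esterified on the sugar with malonic acid, and heating turns malonyl into acetyl esters or plain glucosides. Glucosidases of the small intestine and of gut bacteria release the aglycone, and some gut bacteria reduce daidzein to dihydrodaidzein and on to equol or to the ring-opened O-desmethylangolensin. Genistein is reduced to dihydrogenistein by a parallel route. A compound name stands below for a formula and takes in its isomers: daidzein shares C15H10O4 with chrysin, genistein shares C15H10O5 with apigenin, dihydrodaidzein shares C15H12O4 with liquiritigenin, and dihydrogenistein shares C15H12O5 with naringenin. The formula C16H12O5 is that of both glycitein and biochanin A.

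Apart from the formula C16H12O5, which was listed in both groups, isoflavones and their conjugates were listed in the streptomycin samples and at 0 in the untreated samples, while 3 of the 4 entries of reduced products showed the opposite. Of the 22 entries 18 were higher after streptomycin, 3 were lower and 1 did not pass (limma with Benjamini-Hochberg adjustment over all 2429 entries, threshold 0.05). Among all 2429 entries of the table, 52.7% were called higher and 36.7% lower. The 18 higher entries were 6 of 7 aglycones, all 5 glucosides, all 3 acetyl glucosides, all 3 malonyl glucosides and 1 of 4 reduced products, and the 3 lower ones were the other reduced products. Of the 22 entries 17 were listed in streptomycin samples only, against 47.3% of the table, and 3 in untreated samples only, against 26.6%. In 16 entries all streptomycin samples lay above all untreated ones, against 43.2% of the table, and in 3 all lay below, against 33.2%. For an entry listed in a single group the limma p depends on the value put in for 0, so its levels are given and no fold change. Here and below, a small limma p for such an entry mostly restates that 1 group lists it and the other does not. It adds no further support.

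Summed over their entries, the isoflavone formulas held 1.02% ± 0.260 of all intensity in the streptomycin samples and 0.0963% ± 0.0422 in the untreated samples (SD, n = 4 each). The aglycone sum was 110.3, 64.5, 129 and 189.5 in streptomycin samples 1 to 4, and 3.97, 8.37, 7.68 and 9.72 in untreated samples 1 to 4. The malonyl glucoside sum was 91.6, 46.7, 72.4 and 60.2 in the streptomycin samples, and the class was listed at 0 in every untreated sample. Plain glucosides summed to 23.7 ± 4.46 and acetyl glucosides to 10.96 ± 3.26 in the streptomycin samples (SD, n = 4), and both were listed at 0 in the untreated samples. Reduced products summed to 5.03, 7.40, 18.8 and 15.7 in the untreated samples and to 0.340 to 1.01 in the streptomycin samples. The groups did not overlap in any of these sums. Intensities of different compounds do not compare amounts, because each compound ionises with an efficiency of its own. The sums were not tested, since the members were chosen with results known.

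**Figure D1:**
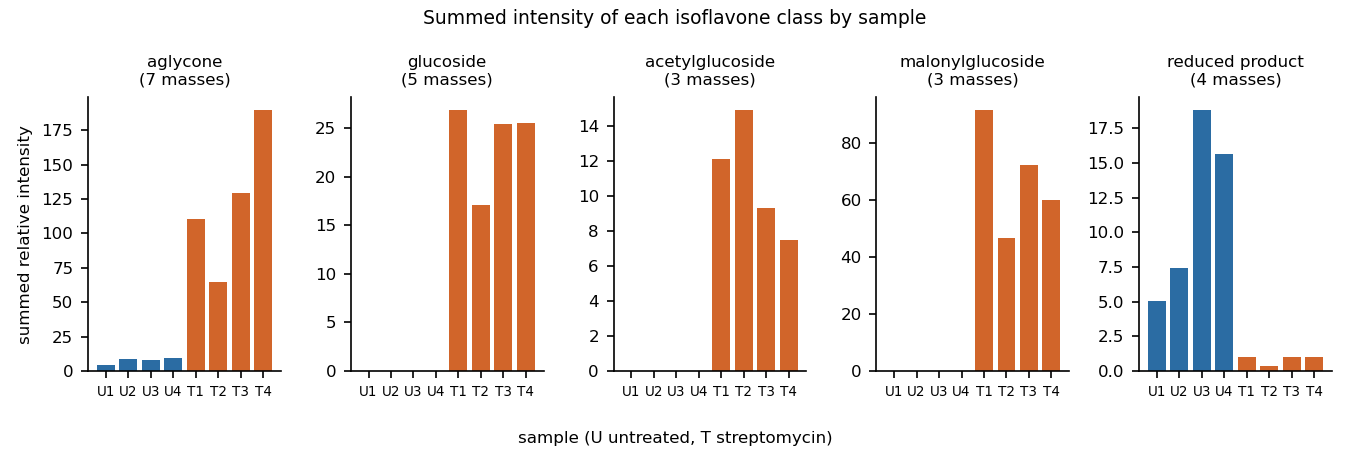
Bars give the summed relative intensity of the entries of each isoflavone class in untreated samples U1 to U4 and streptomycin samples T1 to T4, each panel on its own linear scale from 0. Aglycones and the 3 kinds of glucoside stand in the streptomycin samples, reduced products mainly in the untreated ones, and streptomycin sample 2 is lowest for aglycones, glucosides and malonyl glucosides and highest for acetyl glucosides.

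The instrument and the samples bear on these values in a few ways. Untreated samples listed 1210 to 1270 entries with total intensities of 19761 to 20140, and streptomycin samples 1633 to 1768 entries with 21600 to 23221. The number of ions behind an intensity is unknown, and the lowest listed intensity of a single acquisition ranged from 0.148 to 0.234 over the samples. Within a group an entry is listed in 6 to 8 of the 8 acquisitions or not at all, so a 0 means that this was not reached, not that the compound was absent. The 2 calibrant masses, spiked into every extract in fixed amount, were higher in the streptomycin samples by 0.39 ± 0.11 and 0.46 ± 0.12 (log2, SE), and after scaling to them the same 18 entries were called higher and the same 3 lower. Faeces were taken before and then after treatment, so treatment and day of collection cannot be told apart. No label ties a sample to its own mouse, and p-values then measure only the spread between these samples, which may be technical.

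In streptomycin sample 1 the 2 acquisitions were equal within 0.1% for 881 of the 1693 entries listed in both, and no other sample had more than 2.43% of such entries. The differences fell into ranges with few entries between them. Of 101 pairs of entries within 1 ppm of each other, 100 held 1 equal and 1 unequal entry. The labels state that each sample was acquired in positive and in negative ion mode, but the table does not give the mode of an entry. Of the 19 isoflavone entries listed in streptomycin samples 7 were equal and 12 unequal in this sense. All 6 formulas with 2 entries in the streptomycin samples had 1 of each kind. The cause of the equal values was not tested.

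**Figure D2:**
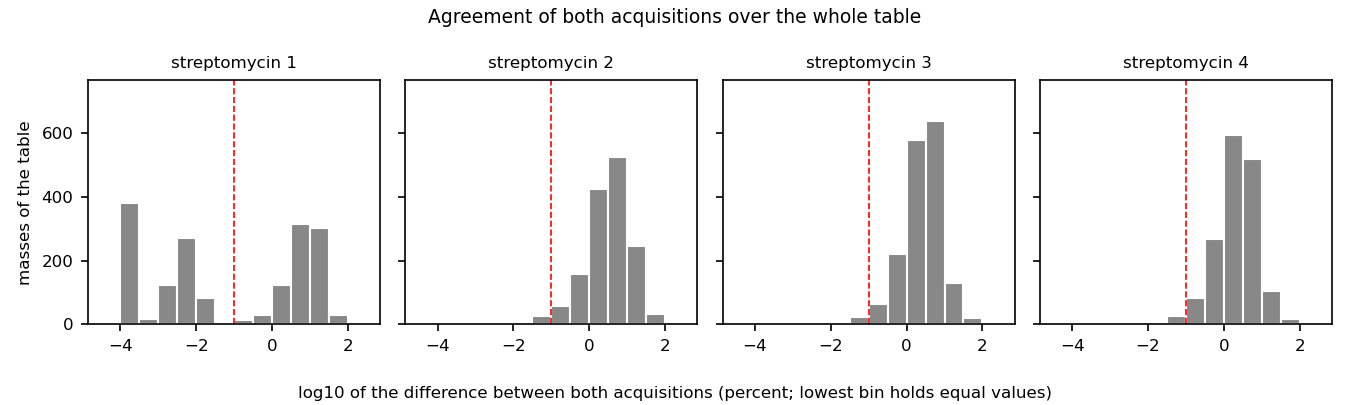
Histograms count the entries of the whole table by the difference between the 2 acquisitions of each streptomycin sample, as log10 of the percentage. Equal values are placed in the bin from -4 to -3.5, and the dashed line is at 0.1%. Sample 1 has entries on both sides of 0.1%, 881 of them under it, with only 2 in the bin just under the line. Those under 0.1% have peaks of their own, at 382 and 270 entries. Samples 2, 3 and 4 have a single main peak.

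Daidzein and genistein, the main aglycones of soy, were each matched by 2 entries, and all 4 were listed at 0 in every untreated sample. For daidzein the unequal entry at 254.0580 Da was at 16.4, 17.9, 21.4 and 21.4 in streptomycin samples 1 to 4, and the equal entry, printed with the same mass, was at 21.5, 13.6, 23.3 and 38.8. The first varied by 1.30-fold between samples and the second by 2.84-fold. For genistein the unequal entry at 270.0529 Da was at 17.1, 18.8, 21.8 and 20.8. The equal genistein entry at 270.0530 Da was at 33.7, 37.2 and 57.6 in samples 1, 3 and 4 and listed at 0 in both acquisitions of sample 2, where the unequal entry stood within the range of the other samples. Its groups therefore overlapped at 0 (limma adjusted p = 0.0155, exact two-sided permutation p = 0.143). Without sample 2 its limma adjusted p was 1.53e-08, which follows from leaving out the only streptomycin sample at 0 and is no support. The unequal daidzein and genistein entries ranked at 92.9% and 93.0% of all entries listed in streptomycin samples by mean intensity.

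Formononetin, a methyl ether of daidzein typical of clover and other legumes, was at 3.87, 1.44, 4.00 and 3.70 in the streptomycin samples and listed at 0 in the untreated samples (268.0737 Da). Sample 2 listed it in 1 of its 2 acquisitions, which lowered its mean. The formula C16H12O5 was the only aglycone formula listed in both groups. Its unequal entry at 284.0685 Da was at 3.05, 6.83, 6.24 and 8.19 in the untreated and at 7.86, 7.77, 9.21 and 13.05 in the streptomycin samples. These groups overlapped, with a log2 change of 0.70 ± 0.33 (SE; 95% interval -0.08 to 1.47; limma adjusted p = 0.0790, exact two-sided permutation p = 0.0857). It passed with the replicate number as a block (limma adjusted p = 0.0372), after division by the median ratio (limma adjusted p = 0.0155) and without untreated sample 4 (limma adjusted p = 0.0474). It did not pass when scaled to the calibrants (log2 change 0.28, limma adjusted p = 0.408) or divided by total intensity (log2 change 0.54, limma adjusted p = 0.161). Its equal entry at 284.0686 Da was at 0.922, 1.54, 1.44 and 1.53 in the untreated and at 9.87, 4.94, 12.6 and 34.2 in the streptomycin samples. Here all streptomycin samples were higher, by 3.18 ± 0.55 (log2, SE; limma adjusted p = 0.000875), with sample 4 far above sample 2. The methods' t-test, which the submitters ran unpaired, did not call this entry (unadjusted p = 0.0727). The unadjusted exact permutation p was 0.0286, the lowest possible with 4 against 4 samples, which any entry without overlap of the groups reaches. Among all 633 entries listed in both groups 20.7% were called higher and 38.7% lower, with a median log2 change of -0.47.

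**Figure D3:**
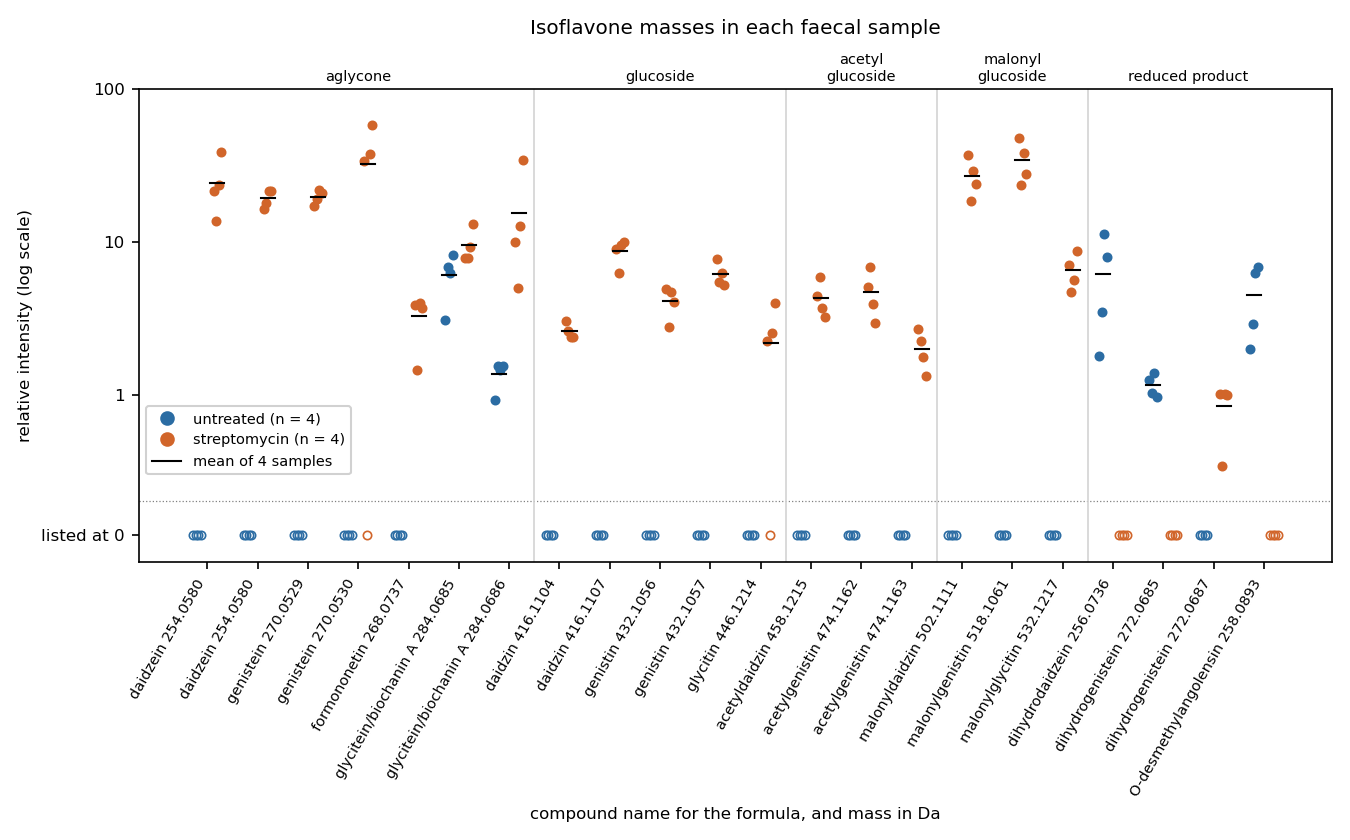
Points give the relative intensity of each of the 22 isoflavone entries in the 4 untreated and 4 streptomycin samples on a log axis, with open points for samples that list the entry at 0 and bars for group means. Outside C16H12O5, at 284.0685 and 284.0686 Da, no entry is listed in both groups.

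The glucosides daidzin, genistin and glycitin, the forms in which a sugar is bound to the aglycone, were listed in streptomycin samples only. Daidzin at 416.1107 Da, the unequal entry, was at 8.89, 6.26, 9.50 and 9.96, and its equal entry at 416.1104 Da was at 3.03, 2.58, 2.39 and 2.37. Genistin was at 4.90, 2.76, 4.69 and 4.02 in the unequal entry at 432.1056 Da and at 7.74, 5.45, 6.27 and 5.16 in the equal entry at 432.1057 Da. Glycitin, the glucoside of glycitein, had a single entry at 446.1214 Da, which was at 2.24, 2.51 and 3.94 in samples 1, 3 and 4 and listed at 0 in sample 2. Its groups overlapped at 0 (limma adjusted p = 0.0155, exact two-sided permutation p = 0.143). Without sample 2 the limma adjusted p was 2.82e-07, which again follows from leaving out the only streptomycin sample at 0. With values under 1 raised to 1 the limma adjusted p was 0.0525, no longer a call. The other 4 glucoside entries were listed in all 8 streptomycin acquisitions.

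Of the malonyl glucosides, the native storage forms of the bean, those of genistein and daidzein were among the most intense isoflavone entries. Malonylgenistin at 518.1061 Da was at 47.9, 23.6, 37.8 and 27.7, and malonyldaidzin at 502.1111 Da at 36.6, 18.4, 28.9 and 23.9 in streptomycin samples 1 to 4. Their means ranked at 95.9% and 94.9% of the entries listed in those samples. Both were highest in sample 1 and lowest in sample 2. Malonylglycitin at 532.1217 Da was at 6.996, 4.65, 5.64 and 8.66, and thus highest in sample 4, as glycitin was. All 3 had a single entry, of the unequal kind, and were listed at 0 in the untreated samples (limma adjusted p of 3.67e-09 to 1.08e-08).

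Acetyl glucosides, which form from malonyl glucosides under heat, followed another order. Acetyldaidzin at 458.1215 Da was at 4.39, 5.90, 3.66 and 3.23, and acetylgenistin at 474.1162 Da at 5.07, 6.79, 3.89 and 2.94 in streptomycin samples 1 to 4. Sample 2, the lowest in aglycone, glucoside and malonyl sums, was thus the highest in both, and sample 4 the lowest. The equal entry of acetylgenistin at 474.1163 Da was at 2.67, 2.23, 1.75 and 1.32, with sample 1 highest and sample 4 lowest. All 3 were listed at 0 in the untreated samples. No entry matched acetylglycitin, whose nearest mass lay 231 ppm away. Sample 2 also had the highest intensity of both calibrants, 225 at 621.0216 Da and 156 at 921.0027 Da, and the fewest listed entries of the streptomycin samples, and the part of these in its order was not tested.

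Of the reduced products, dihydrodaidzein and O-desmethylangolensin stood in untreated samples only. Dihydrodaidzein, the first bacterial reduction product of daidzein, was at 1.79, 3.46, 11.2 and 7.90 in untreated samples 1 to 4 (256.0736 Da; limma adjusted p = 1.46e-05). The value of sample 1 is the mean of 3.58 and a 0. O-desmethylangolensin, formed by opening of the middle ring, was at 2.00, 2.91, 6.20 and 6.79 (258.0893 Da; limma adjusted p = 2.37e-06). Both were higher in untreated samples 3 and 4 than in samples 1 and 2, with ranges of 6.28-fold and 3.40-fold. The ratio of O-desmethylangolensin to dihydrodaidzein was 1.12, 0.840, 0.552 and 0.860 in the untreated samples.

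Dihydrogenistein had an entry in each group. The entry at 272.0685 Da was at 1.24, 1.03, 1.38 and 0.967 in untreated samples 1 to 4 and at 0 after streptomycin (limma adjusted p = 1.91e-08). The entry at 272.0687 Da was at 1.01, 0.340, 1.01 and 1.00 in the streptomycin samples and listed at 0 in the untreated samples (limma adjusted p = 4.39e-05), and sample 2 listed it in 1 acquisition. Both lay under 1 ppm from the formula, at 0.10 and 0.83 ppm, and the formula as a whole was present at a like intensity in both groups. With values under 1 raised to 1 neither passed (limma adjusted p = 0.158 and 0.300). Equol, the end product of daidzein reduction, had no entry: the nearest mass, 242.0903 Da, lay 16.5 ppm from its formula.

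The match to the formulas was close. The 22 entries lay -0.80 to 0.83 ppm from their formulas, with a median absolute error of 0.21 ppm, and the nearest entry outside the 3 ppm limit lay 15.2 ppm away, at 416.1044 Da beside daidzin. Limits of 1, 2 and 5 ppm gave the same 22 entries.

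Pairs of compounds that differ by a single change in structure were compared within the streptomycin samples, where dose and time were the same. Of 19 such pairs 15 had both formulas listed in at least 3 of these samples and were tested by an exact two-sided sign-flip permutation test of the within-sample log2 ratio, with entries of a formula summed, so that both kinds of entry can enter a ratio. Adjusted over the 15 pairs the exact p-values ran from 0.188 to 0.625. With 4 samples the test cannot go below 0.125, and with 3, in 2 pairs, not below 0.25. No pair could therefore pass, and the lowest to highest ratio is given in place of a call. With 4 samples that range covers the median ratio with 87.5% confidence, and with 3 samples with less. In 12 of the 15 pairs the same compound was the more intense in every sample. No pair had both formulas listed in both groups, so a difference in response between compounds of a pair was not tested.

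An added hydroxyl group on the aglycone separates the genistein from the daidzein series, and the ratios had no direction common to all pairs. Malonylgenistin over malonyldaidzin was 1.31, 1.28, 1.31 and 1.16, and acetylgenistin over acetyldaidzin 1.76, 1.53, 1.54 and 1.32, higher in 4 of 4 samples in both. The acetyl ratio sets 2 summed entries of acetylgenistin against 1 entry of acetyldaidzin. Genistin over daidzin ranged from 0.744 to 1.06 with no fixed direction. Genistein over daidzein was 1.34, 0.598, 1.32 and 1.30, and the 0.598 is that of sample 2, where the equal genistein entry was listed at 0. Among unequal entries alone, an alternative chosen after the data were seen, that ratio was 1.04, 1.05, 1.02 and 0.973. On the same entries genistin over daidzin was 0.403 to 0.551, below 1 in 4 of 4 samples, and acetylgenistin over acetyldaidzin 0.909 to 1.15, on both sides of 1. In untreated samples 1 to 4 dihydrogenistein over dihydrodaidzein was 0.696, 0.297, 0.123 and 0.123, and dihydrodaidzein was listed in 1 acquisition of sample 1.

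Malonyl glucosides were more intense than plain glucosides in every sample that listed both, and plain glucosides less intense than aglycones. Malonylgenistin over genistin was 3.79, 2.88, 3.45 and 3.02, and malonyldaidzin over daidzin 3.07, 2.09, 2.43 and 1.93, or 2.39 to 4.12 on unequal entries. Acetyldaidzin over daidzin was 0.368, 0.667, 0.308 and 0.262 (0.324 to 0.942 on unequal entries), and acetylgenistin over genistin 0.613, 1.10, 0.515 and 0.463, both highest in sample 2. On unequal entries alone acetylgenistin over genistin was 1.03, 2.46, 0.830 and 0.731, so its direction was not fixed, and malonylgenistin over genistin was 6.90 to 9.78. Daidzin over daidzein was 0.314, 0.281, 0.266 and 0.205, lowest in sample 4, but 0.540, 0.350, 0.443 and 0.466 on unequal entries, lowest in sample 2. Genistin over genistein ranged from 0.117 to 0.435, and from 0.146 to 0.287 among unequal entries. Glycitin over C16H12O5 was 0.126, 0.115 and 0.0835 in the 3 samples that listed both, and 0.285, 0.272 and 0.302 on unequal entries. The methyl ether formononetin over daidzein ranged from 0.0457 to 0.102, and from 0.0805 to 0.235 on unequal entries. The ratio of C16H12O5 to genistein ranged from 0.349 to 0.675, and from 0.413 to 0.627 on unequal entries.

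For 5 of the 6 formulas with 2 entries the order of the streptomycin samples differed between the entries, and for C16H12O5 it was the same. In the equal entries of daidzein, genistein and C16H12O5 sample 4 was the highest, at 38.8, 57.6 and 34.2. In the unequal entries samples 3 and 4 were close for daidzein, at 21.4 and 21.4, and for genistein, at 21.8 and 20.8, while for C16H12O5 sample 4 was again the highest, at 13.05 against 9.21. The ratio of the equal to the unequal daidzein entry was 1.31, 0.763, 1.09 and 1.81 in samples 1 to 4, and that of C16H12O5 was 1.26, 0.635, 1.37 and 2.62. For genistin the ratio was 1.58, 1.98, 1.34 and 1.29, highest in sample 2, where it was lowest for the aglycones. For daidzin it was 0.341, 0.413, 0.252 and 0.238, also highest in sample 2. For acetylgenistin it was 0.526, 0.329, 0.449 and 0.448, lowest in sample 2 as for the aglycones. The spread of an aglycone between streptomycin samples thus differed between its entries, and the cause was not tested.

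**Figure D4:**
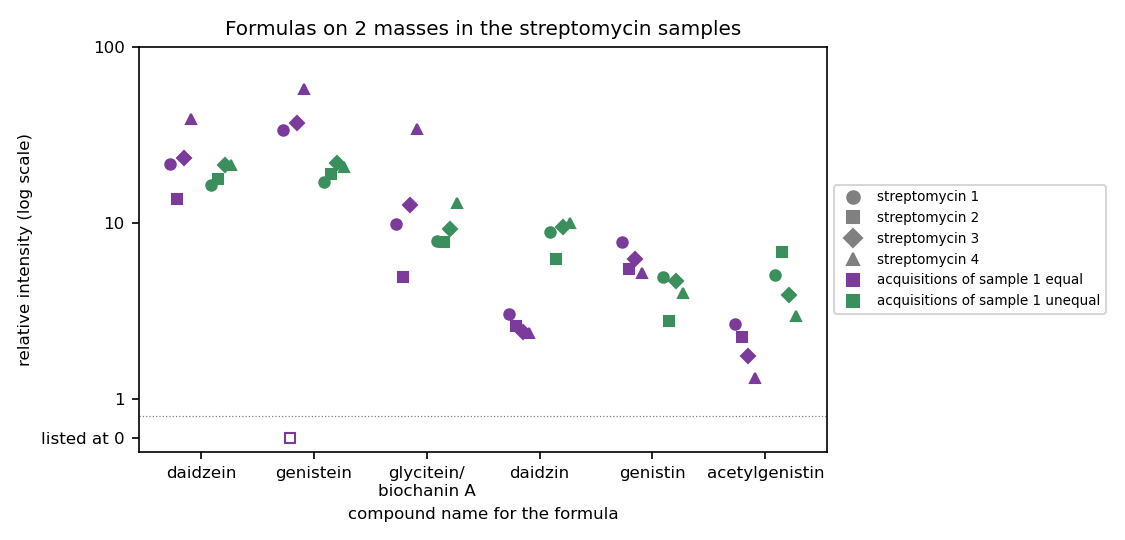
Points give the relative intensity (log axis) of both entries of 6 formulas in the streptomycin samples, marked by sample and coloured by whether the acquisitions of sample 1 were equal. The aglycones spread more between samples in the equal entries, and the equal genistein entry is listed at 0 in sample 2.

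Other ion forms of the 17 formulas were looked for at 10 mass spacings. No entry stood at the spacing of sodium, potassium, hydrogen chloride, acetonitrile, a gained proton or carbon-13, and 9 entries outside the set stood at the others. The mass at formononetin less a proton, 267.0662 Da, was at 2.81, 1.03, 2.95 and 3.87 in the streptomycin samples and listed at 0 in the untreated samples, as formononetin was. That of genistein with ammonia, 287.0794 Da, went the other way, where untreated samples 1 to 4 had a mean of 6.39 ± 1.28 (SD) and none of the streptomycin samples listed it. The mass of daidzein with formic acid, 300.0634 Da, is also that of C16H12O6, a methyl ether of tetrahydroxyflavones, and was higher after streptomycin, at 3.42 ± 1.97 against 0.802 ± 0.0457 (SD, n = 4 each), a log2 change of 1.91 ± 0.41 (SE; limma adjusted p = 0.00284). Another entry of that formula at 300.0635 Da had 1.96 ± 0.846 (SD, n = 4) in the untreated samples and no listing after streptomycin. Genistin less water, 414.0951 Da, was at 2.21, 1.22 and 1.32 in streptomycin samples 1 to 3 and listed at 0 in sample 4 and in the untreated samples. At equol with formic acid, 288.0998 Da, untreated samples 2, 3 and 4 had 0.363, 0.407 and 0.352, and all other samples were listed at 0. Dihydrogenistein less water has the formula of daidzein, so both daidzein entries also stood at that spacing. A spacing is not an identification.

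A list of 21 other formulas of dietary polyphenols and their bacterial products gave 12 entries for 9 formulas, of which 8 were higher, 3 lower and 1 did not pass, beside 52.7% higher and 36.7% lower over the whole table. The ring-opened product of genistein, 6'-hydroxy-O-desmethylangolensin, which shares C15H14O5 with phloretin, was at 3.95, 6.17, 6.43 and 6.39 in untreated samples 1 to 4 and at 0 after streptomycin (274.0842 Da; limma adjusted p = 6.88e-09). It thus stood in the same samples as O-desmethylangolensin. Sinapic acid, a phenolic acid of plant cell walls, was at 6.69 ± 1.21 and 1.94 ± 0.310 (SD, n = 4) in 2 entries at 224.0685 Da, in streptomycin samples only. The flavone tricin had an entry with overlapping groups at 330.0740 Da, at 2.33 ± 0.416 in untreated and 2.30 ± 0.565 in streptomycin samples (log2 change -0.04 ± 0.21 SE, limma adjusted p = 0.864). Its other entry at 330.0741 Da had 1.93 ± 0.261 (SD, n = 4) in the untreated samples and no listing after streptomycin (limma adjusted p = 4.14e-09). Both masses are also those of C16H12O5 with formic acid. Enterolactone and enterodiol, which bacteria make from plant lignans, hydroxyphenylpropionic acid and hippuric acid had no entry within 3 ppm.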

How the data were processed

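Per the labels' protocols, extracts were infused in positive and negative ion mode over m/z 150 to 1100, with 200 scans accumulated per spectrum and duplicate acquisitions. The authors deposited a table of 2429 neutral masses with a relative intensity for each of 16 acquisitions. The basis of the relative scale, the peak picking and the joining of both modes are not given in the sources used here, and no ion counts were used. Formula masses were computed with pyteomics 5.0.1 and matched within 3 ppm, the limit of the submitters' own search. A sample's value was the mean of both acquisitions, with an unlisted acquisition as 0. Values of 0 were set to 0.0738, the lowest sample value in the table, before log2 and limma 3.58.1 (R 4.3.3) with Benjamini-Hochberg adjustment over 2429 entries at 0.05, without the replicate number as a block. The script was tested on data simulated from entries listed in all samples, which does not bear on calls that rest on the value put in for 0. Exact tests used all permutations (scipy 1.17.1). Alternatives changed the scaling, the value for 0, the choice of entry, the mass limit, the test, the block and the samples. Named were every matched entry of the set, the matched entries of C15H14O5, C18H18O4, C18H22O4, C9H10O3 and C9H9NO3 with the 3 other polyphenol entries of highest group mean, and up to 3 other ion forms per class by group mean. The entries at 300.0635 and 330.0741 Da and the weaker sinapic acid entry were added after their values were seen. The members and lists were chosen with earlier results of these data known.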

Additional observations from a re-analysis of the deposited data

Results flagged for a closer look

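In groups of 4 samples a lone sample was marked where its gap to the nearest other was above Dixon's 95% critical share of the range. Of 66 groups looked at 8 were marked, 5 of them in streptomycin sample 2 and 3 in untreated sample 1. Chance marks about 1 in 20 of independent groups. Sums and ratios share entries with the single entries looked at, so the marks are not independent and that share is only a guide. In streptomycin sample 2 formononetin (268.0737 Da) was at 1.44 against 3.70 to 4.00 in the others, and dihydrogenistein (272.0687 Da), with it the sum of reduced products, at 0.340 against 1.00 to 1.01. Both are means of a listed and an unlisted acquisition. The glucoside sum there was 17.05 against 25.4 to 26.8, and genistein over daidzein was 0.598 against 1.30 to 1.34. In untreated sample 1 the formula of glycitein or biochanin A (284.0686 Da) was at 0.922 against 1.44 to 1.54. The formula of 6'-hydroxy-O-desmethylangolensin (274.0842 Da) was at 3.95 there against 6.17 to 6.43, and the mass of equol with formic acid (288.0998 Da) at 0 against 0.352 to 0.407.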

How the results depend on the processing

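Of 343 alternative values for 28 results 327 kept their direction and side of the threshold, or moved by less than the allowance for a value without a test. The 15 pair ratios could not pass in any setting, so only a change of direction counted for them. Their sizes could move within this count. With 1 entry per formula the log2 ratio of genistin to daidzin was -1.09 in place of -0.14, and was counted as kept. With values under 1 raised to 1, 744 entries of the table were called higher and 561 lower in place of 1281 and 891, and 16 and 2 of the isoflavone entries. With 1 entry per formula, the nearest in mass or the unequal one, 11 of 15 isoflavone entries were called higher, and fewer entries are counted by construction. The aglycone sum in the streptomycin samples was then 56.6 or 51.6 in place of 123, and the glucoside sum 14.9 either way in place of 23.7. The log2 ratio of acetylgenistin to genistin was 0.16 either way in place of -0.66, and genistein over daidzein was -0.21 with the nearest entry in place of 0.12. The choice of unequal entries was made after the data were seen. At 284.0685 Da the log2 change was 1.09 after division by the median ratio (limma adjusted p = 0.0155), and 0.39 to 0.87 with a sample left out (limma adjusted p = 0.0474 to 0.181). Scaled to the calibrants it was 0.28 (limma adjusted p = 0.408), and divided by total intensity 0.54 (limma adjusted p = 0.161). With the replicate number as a block it was 0.70 (limma adjusted p = 0.0372), and 19 isoflavone entries were called higher and 3 lower. Same-numbered samples correlated at 0.03 to 0.12 in their deviations, over 0.1 in 2 of 4 numbers, and 2 of 4 correlated best with their own. Samples of different numbers correlated at -0.19 to 0.12. With 4 numbers these values cannot show whether same-numbered samples came from the same mouse. At 284.0686 Da the log2 ratio of the group means was 3.50. The methods' t-test, run on intensities without log2, gave an adjusted p of 0.0802 against the limma test's 0.000875. The exact permutation p of 0.0286 is unadjusted and the lowest possible with 4 against 4 samples. Leaving out a sample gave 18 to 19 isoflavone entries higher and 3 lower. Dividing by the calibrants, the total or the median ratio moved the median log2 change over entries listed in both groups to -0.87, -0.63 and -0.08. Entries of low intensity, dihydrogenistein among them, are the least certain. By mean intensity its entries ranked at 29.5% of those listed in untreated and 20.4% of those listed in streptomycin samples. Neither was called with values under 1 raised to 1.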
